A study of Mus musculus with 2 samples.

Results

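Hypoxia response genes were followed in costal-cartilage-derived stem cells (CDSCs) of the mouse, as primary and as cultured cells. The 10 genes, out of 21849 in the count tables, were taken by symbol as the transcription factor subunits Hif1a and Epas1, the oxygen sensor Egln3, the secreted signals Vegfa and Adm, and the effectors Bnip3, Pdk1, Ddit4, Ndrg1 and Ankrd37. All 10 were found, each in a single row. Cartilage has no blood vessels, whereas a culture dish is bathed in air, and the comparison set the cells against each other on that axis. The study's methods name a CO2 incubator and give no oxygen level for either state, and oxygen was not measured.

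The cells came from rib cartilage of newborn CD45.1 or ZsGreen C57BL/6J mice, were released with collagenase in a pair of warm digestions, and were sorted as lacking CD45, a protein of blood cells, and carrying CD51, an integrin. The primary group was sequenced without culture, and the cultured group at passages 2 to 3 in minimum essential medium with fetal bovine serum. Each group was 1 library, made with a kit that counts the 3′ ends of transcripts by unique molecular identifiers (UMIs), so the spread between replicates is unknown and nothing was tested. Each interval is an exact 95% one for counting error alone.

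After barcodes with under 500 genes, under 1000 UMIs or over 10% mitochondrial UMIs were left out, 11746 primary cells (median 10026.5 UMIs) and 5338 cultured cells (median 56864.5 UMIs) remained, with 137148874 and 330129909 UMIs. The filter left out 1.26% of the primary and 50.6% of the cultured barcodes, and 15 kept barcodes occurred in both libraries. The labels call the tissue bone marrow, but all 10 chondrocyte markers examined, Col2a1 and Acan among them, stood at a summed 80401.5 CPM, UMIs of a gene scaled to a total of 1000000 per library, among primary and at 588 CPM among cultured cells. Blood cell markers summed to 7.63 and 23.6 CPM. ZsGreen had 60957 primary and 0 cultured UMIs, and the Y-linked Uty 11 and 20195, so the libraries came from different animals, and culture and animal cannot be told apart. Immediate early genes, which many stimuli switch on within minutes, were lower in the cultured library in all 11 cases, at a summed 18446.5 and 2623 CPM, and their part in the ratios below was not tested.

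In well oxygenated cells, prolyl hydroxylases of the EGLN family mark the HIF alpha subunits, HIF-1α from Hif1a and HIF-2α from Epas1, for destruction through the von Hippel-Lindau protein. When oxygen is short, the alpha subunits persist, pair with ARNT and bind hypoxia response elements near genes for angiogenesis, glucose handling, mitochondrial turnover and growth restraint. The main control thus acts on HIF protein rather than on its mRNA, and several induced genes, Egln3 among them, feed back on the pathway. In cartilage, HIF-1α is known for keeping growth plate chondrocytes alive, and HIF-2α for a role in matrix breakdown.

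The DNA that HIF is known to bind has ACGTG or GCGTG at its core. Promoter sequence from RefSeq (GRCm38.p6), the 250 bases before each annotated start, was matched for 8 of the 10 genes in 10 windows, while Epas1 and Ndrg1 were not matched. At least 1 core on either strand was found in 8 of the 10 windows, and in 38.6% of all 32851 windows of the same length. By gene, 8 of the 8 matched genes had a window with a core, against 41.5% of all 27025 genes. For Vegfa that window lay inside the gene (chr17:46025164-46025413) and matched the start of 0 GENCODE transcripts. The Vegfa window at the gene's start (chr17:46032378-46032627) held 0 matches. The windows of Bnip3 and Ankrd37 held 5 and 4 matches, overlapping ones counted separately, and 2.58% of all windows held at least 4. The windows shown belong to the gene that was furthest down in culture (Ddit4), the gene furthest up (Adm) and the pair closest to no difference (Bnip3 and Ankrd37). Capitals mark each core or its reverse complement, CACGT or CACGC, and each sequence runs 5′ to 3′ along the gene's strand.
Ddit4, chr10:59951771-59952020, minus strand: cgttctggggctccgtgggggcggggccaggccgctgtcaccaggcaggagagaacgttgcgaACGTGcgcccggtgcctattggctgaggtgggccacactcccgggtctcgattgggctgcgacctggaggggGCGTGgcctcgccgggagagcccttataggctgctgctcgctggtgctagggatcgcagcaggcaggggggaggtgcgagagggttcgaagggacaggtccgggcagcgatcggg
Adm, chr7:110627407-110627656, plus strand: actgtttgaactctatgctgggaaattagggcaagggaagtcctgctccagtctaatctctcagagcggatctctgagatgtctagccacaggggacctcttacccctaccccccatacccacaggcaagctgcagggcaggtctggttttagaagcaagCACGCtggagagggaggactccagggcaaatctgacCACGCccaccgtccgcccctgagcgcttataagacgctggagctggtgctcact
Bnip3, chr7:138909507-138909756, minus strand: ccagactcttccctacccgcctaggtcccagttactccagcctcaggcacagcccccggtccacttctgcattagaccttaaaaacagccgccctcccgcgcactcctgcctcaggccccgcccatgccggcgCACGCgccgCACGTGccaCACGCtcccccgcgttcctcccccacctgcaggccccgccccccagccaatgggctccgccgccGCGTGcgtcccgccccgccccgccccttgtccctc
Ankrd37, chr8:45999851-46000100, minus strand: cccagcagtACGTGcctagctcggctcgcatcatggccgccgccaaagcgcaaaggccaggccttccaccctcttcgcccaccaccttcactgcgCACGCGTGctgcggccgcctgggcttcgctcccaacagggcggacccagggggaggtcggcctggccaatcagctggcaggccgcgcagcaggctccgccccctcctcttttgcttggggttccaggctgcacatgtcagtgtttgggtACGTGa
The run CACGTG in Bnip3 reads as ACGTG on both strands, and CACGCGTG in Ankrd37 as GCGTG on both. A match describes the letters in the window and not binding, and Ddit4 and Adm, at opposite ends of the ratios below, held 2 matches each.

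Of the 10 genes, 9 stood lower and 1 stood higher in the cultured library, as the plot of levels by library shows. At least 2-fold lower levels were found for 3, Ddit4, Epas1 and Egln3, and an at least 2-fold higher level for 1, Adm. All 10 had at least 1 CPM in either library. Among the 12839 genes at that level, 36.5% were lower by any size, 15.1% at least 2-fold lower and 28.9% at least 2-fold higher in culture. The median log2 ratio of cultured over primary CPM was -0.51 for the 10 genes, against 0.36 for those 12839 genes. At a minimum of 10 CPM in either library, 7 of the 10 remained, 6 of them lower, Ddit4 at least 2-fold lower and Adm at least 2-fold higher. Among the 9115 genes at that level, 35.5% were lower by any size, 12.5% at least 2-fold lower and 27.2% at least 2-fold higher, with a median log2 ratio of 0.37. In the order of the ratios, the interval of Pdk1 overlapped those of its neighbours Hif1a and Vegfa, and the intervals of Bnip3 and Ankrd37 overlapped each other. Adm passed the 10 CPM minimum through the cultured library alone, and Epas1, Egln3 and Ankrd37 did not pass it.

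**Figure D1:**
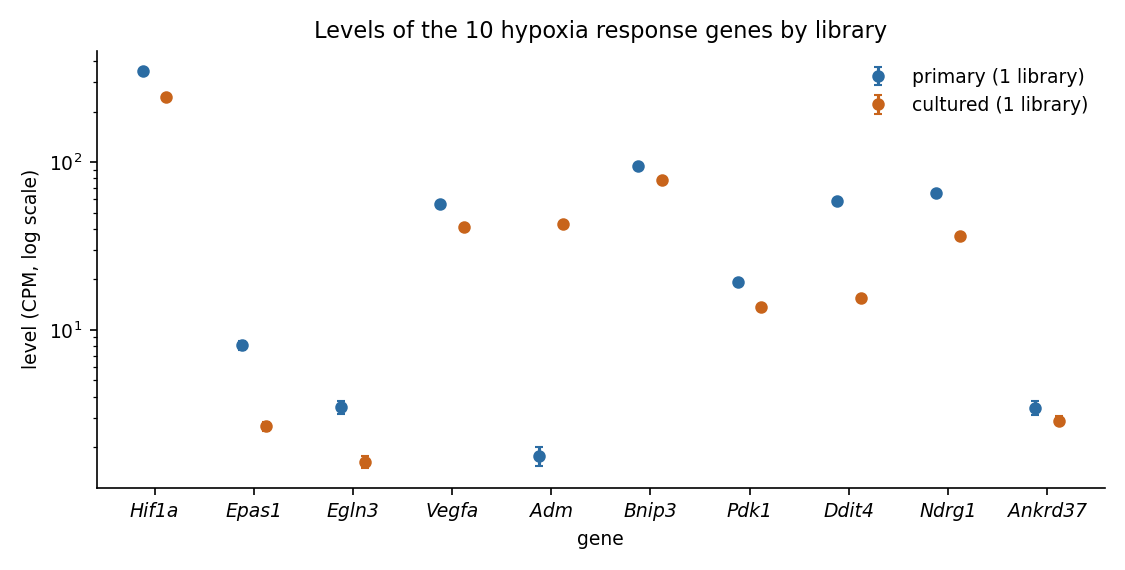
Level of each gene in CPM (log axis) in the primary and the cultured library, with exact 95% Poisson intervals, which are often narrower than the points. Hif1a was at 348 and 243 CPM, and Adm, at 1.76 and 42.9 CPM, is the one gene with the cultured point above the primary point.

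Hif1a (ENSMUSG00000021109, chr12:73901375-73947530, plus strand, GRCm38) measured 348 CPM (345 to 351) in primary and 243 CPM (241 to 245) in cultured cells. The log2 ratio was -0.52 (-0.53 to -0.50). After each cell had been thinned to 5000 UMIs, so that depth per cell was equal, 72.9% of 10959 primary cells and 64.6% of 4543 cultured cells had a Hif1a UMI. The summed level was 1.43-fold lower in the cultured library. Free RNA was not separated from the RNA of cells here, and the 5460 cultured barcodes that failed the filter, with a median of 775 UMIs, held Hif1a at 273 CPM (260.3 to 286). An overlapping gene on the same strand, Gm49321, was not among the counted genes.

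Epas1 (ENSMUSG00000024140, chr17:86753700-86833410, plus strand) measured 8.06 CPM (7.60 to 8.55) in primary and 2.65 CPM (2.48 to 2.84) in cultured cells. Its log2 ratio was -1.60 (-1.73 to -1.47). Over the 10 alternatives it ran from -2.22, among the cells at or below the median immediate early gene share of their library, to -1.15, with each cell weighing the same. A UMI was found in 3.44% of thinned primary and 1.32% of thinned cultured cells. Epas1 was uneven among primary cells. In the 21 cells that carried endothelial markers, Epas1, long known as a factor of endothelial cells, stood at 300 CPM (234 to 379), from 71 UMIs in 17 of the cells. In the 5 cells with smooth muscle and pericyte markers it was also high, at 218 CPM (125 to 354), from 16 UMIs. In the 11380 primary cells with no markers of another cell type it stood at 7.41 CPM (6.95 to 7.88). The endothelial-marker cells thus held 6.42% of the primary Epas1 UMIs, and without cells of other types the level in the primary library was still above that of the cultured library. The chondrocyte marker class overlapped the others, with 11720 of the 11746 primary cells and 1095 of the 1106 Epas1 UMIs. Most of the 71 UMIs were therefore in cells that carried chondrocyte markers as well, and whether these were mixed barcodes was not tested.

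Egln3 (ENSMUSG00000035105, chr12:54178981-54203860, minus strand), a prolyl hydroxylase that is itself induced by low oxygen, measured 3.45 CPM (3.14 to 3.77) in primary and 1.64 CPM (1.501 to 1.78) in cultured cells. The log2 ratio was -1.08 (-1.26 to -0.90). With each cell weighing the same it was -0.78, under 2-fold. At 5000 UMIs per cell, 1.35% of primary and 0.858% of cultured cells had a UMI, with overlapping intervals (1.14 to 1.58 and 0.611 to 1.17). Without thinning, 1 primary cell carried 25 of the 473 Egln3 UMIs.

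The other regulators of HIF were split. Of the 9 on the list, 7 were higher and 2 lower in culture. The 7 with at least 10 CPM held 0 that were lower and 3 that were at least 2-fold higher, of which Arnt2 passed that minimum through the cultured library alone. Among all genes at that level, 35.5% were lower and 27.2% at least 2-fold higher. Cited2, which competes with HIF-1α for the coactivator p300, was at 36.2 CPM in primary and 587 CPM in cultured cells. Egln1, the main oxygen-sensing hydroxylase, was at 39.5 and 94.4 CPM, and Arnt2, a partner of the alpha subunits, at 0.416 and 24.9 CPM. The common partner Arnt, at 54.2 and 56.5 CPM, and Vhl, at 13.2 and 13.3 CPM, lay close to equal on this scale. With TMM scaling, which assumes that most genes are alike between libraries, 3 of the 7 (Arnt, Vhl and Egln2) turned to the lower side. The 2 lower genes were below the 10 CPM minimum, Hif3a with 565 primary UMIs and 1 cultured UMI, and Cited4 with 62 and 38 UMIs, or 0.452 and 0.115 CPM.

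**Figure D2:**
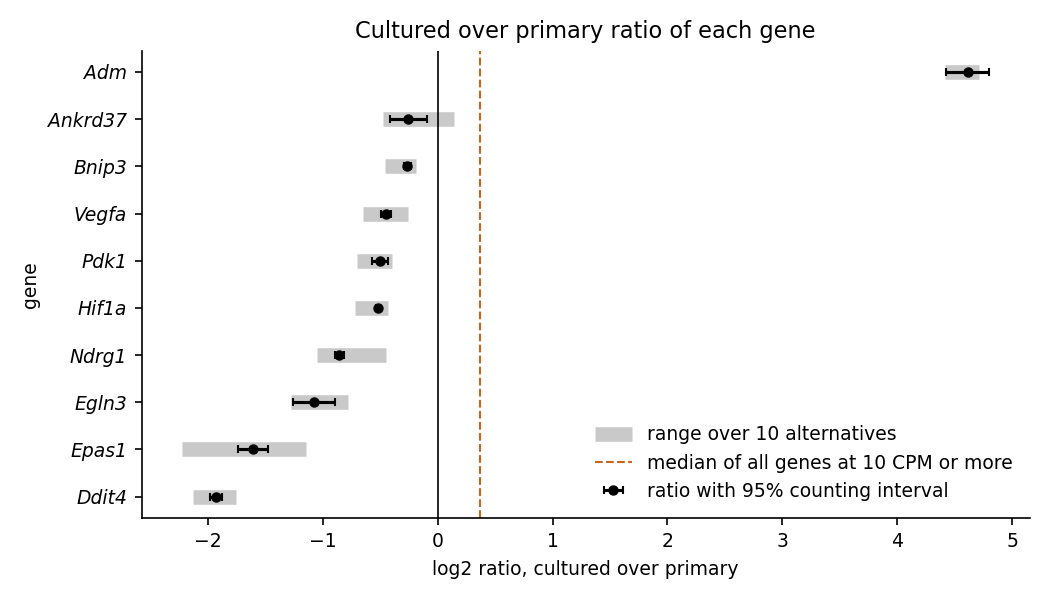
Log2 ratio of cultured over primary CPM for each gene, ordered by ratio. Points with bars show the ratio and its 95% counting interval, grey bands the range over 10 alternative settings, and the dashed line the median of 9115 genes with at least 10 CPM (0.37); Ankrd37 is the one gene whose band crosses 0.

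Vegfa (ENSMUSG00000023951, chr17:46016993-46032369, minus strand), the main angiogenic ligand under HIF control, measured 55.9 CPM (54.7 to 57.2) in primary and 40.9 CPM (40.2 to 41.6) in cultured cells. The log2 ratio was -0.45 (-0.49 to -0.41). At equal depth 19.5% of primary and 18.4% of cultured cells had a UMI, with overlapping intervals (18.8 to 20.3 and 17.3 to 19.6). Of the 9 other ligands and receptors of the family, 6 were higher and 3 lower in culture, 2 of the latter at least 2-fold. The 5 with at least 10 CPM were all at least 2-fold higher, against 27.2% of all genes at that level. Of them, Vegfd, Vegfc and Nrp1 passed that minimum through the cultured library alone. Vegfd, a lymphatic growth factor, was at 1.85 and 165 CPM, Vegfc at 3.20 and 29.5 CPM, Vegfb at 11.5 and 36.1 CPM, and the co-receptor Nrp1 at 3.82 and 69.1 CPM. On the lower side, with Vegfa, were the ligand Pgf, at 2.48 and 2.00 CPM, and the receptors Flt1, at 3.19 and 0.254 CPM, and Kdr, at 0.744 and 0.203 CPM, both typical of endothelial cells.

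Adm (ENSMUSG00000030790, chr7:110627661-110629820, plus strand) encodes adrenomedullin, a vasodilator peptide that is induced by low oxygen, and measured 1.76 CPM (1.54 to 1.99, 241 UMIs) in primary and 42.9 CPM (42.2 to 43.6, 14173 UMIs) in cultured cells. It was 24.4-fold higher in culture, a log2 ratio of 4.61 (4.43 to 4.80). At equal depth 0.693% of primary and 17.0% of cultured cells had a UMI. Without thinning the shares were 1.55% and 58.5%. Adm was thus the exception among the 10 genes, and the direction held under each of the 10 alternatives, from 4.41 to 4.71. In the primary library, the 21 endothelial-marker cells were at 29.6 CPM (11.9 to 61.0), from 7 UMIs in 4 cells. The level was not particular to them. The 5 cells with smooth muscle and pericyte markers were at 109 CPM (47.1 to 215), from 8 UMIs. The 4 with erythroid markers were at 77.8 CPM (21.2 to 199), from 4 UMIs. All 241 primary Adm UMIs were in cells that met the chondrocyte marker class, but that class took in 99.8% of the primary cells. It did not exclude the other classes. Of the 241 UMIs, 22 (9.13%) were in the 3.12% of primary cells with markers of another cell type.

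The partners of adrenomedullin did not move together. Of the 7 on the list 4 had at least 10 CPM, with 1 at least 2-fold lower and 2 at least 2-fold higher in culture. The shares of all genes at that level were 12.5% and 27.2%. Of the proteins that make the receptor CALCRL bind adrenomedullin, Ramp2 was at 28.8 and 1.08 CPM, and Ramp3 at 0.423 and 10.8 CPM. Calcrl itself was at 0.860 and 3.57 CPM. Ackr3, a scavenging receptor, was at 27.8 and 97.2 CPM, and Pam, the enzyme that completes the peptide, at 527 and 400 CPM.

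Bnip3 (ENSMUSG00000078566, chr7:138890836-138909519, minus strand), a mitochondrial protein that marks mitochondria for removal, measured 94.3 CPM (92.7 to 95.9) in primary and 78.6 CPM (77.6 to 79.5) in cultured cells. The log2 ratio of -0.26 (-0.29 to -0.23) is a 1.20-fold difference. At equal depth 35.9% of primary and 30.1% of cultured cells had a UMI. Its relative Bnip3l, with the same task, was at 106 and 186 CPM, in the opposite order. Pink1, a kinase of another mitophagy route, was at 98.3 and 40.8 CPM. Of the 6 mitophagy genes on the list, 2 were at least 2-fold lower and 0 at least 2-fold higher in culture. The shares of all genes with at least 10 CPM were 12.5% and 27.2%.

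Pdk1 (ENSMUSG00000006494, chr2:71873224-71903858, plus strand) encodes the kinase by which HIF-1α holds pyruvate back from mitochondria, and measured 19.3 CPM (18.6 to 20.03) in primary and 13.6 CPM (13.2 to 14.0) in cultured cells. The log2 ratio was -0.50 (-0.57 to -0.43), and 8.96% and 6.85% of cells had a UMI at equal depth. Of the 10 related kinases, phosphatases and subunits of pyruvate dehydrogenase, 8 had at least 10 CPM. Of these, 2 were at least 2-fold lower and 1 at least 2-fold higher, against 12.5% and 27.2% of all genes. Pdk3 was at 28.2 and 34.8 CPM. Pdhb, a subunit of the dehydrogenase, was at 71.5 and 29.3 CPM, Pdp2, a phosphatase that reactivates it, at 11.6 and 3.92 CPM, and the subunit Dlat at 14.1 and 49.0 CPM.

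Ddit4 (ENSMUSG00000020108, chr10:59949669-59951834, minus strand), also called REDD1, restrains mTORC1 when oxygen or energy is short and responds to glucocorticoids and other stress too. It measured 59.0 CPM (57.7 to 60.3) in primary and 15.5 CPM (15.1 to 15.9) in cultured cells, 3.81-fold lower, with a log2 ratio of -1.93 (-1.98 to -1.88). This was the lowest ratio of the 10 in the whole libraries, but not among the cells at or below the median immediate early gene share, where Ddit4 was at -1.75 and Epas1 at -2.22. At equal depth 22.1% of primary and 7.09% of cultured cells had a UMI. Its paralogue Ddit4l stood in the opposite order, at 0.365 and 54.7 CPM. The list of 7 further brakes on mTORC1 was split, with 1 at least 2-fold lower, Deptor at 87.8 and 6.33 CPM. Another 3 were at least 2-fold higher, Ddit4l, Sesn3 and Tsc2. Among all genes with at least 10 CPM, the shares were 12.5% and 27.2%. With TMM scaling 2 of the list were at least 2-fold lower and 1 at least 2-fold higher.

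Ndrg1 (ENSMUSG00000005125, chr15:66929318-66969640, minus strand), a cytoplasmic stress and differentiation protein, measured 65.6 CPM (64.2 to 67.0) in primary and 36.3 CPM (35.6 to 36.9) in cultured cells. The log2 ratio was -0.86 (-0.89 to -0.82), and 21.9% and 15.7% of cells had a UMI at equal depth. Of its relatives Ndrg2 was at 79.9 and 3.22 CPM and Ndrg3 at 17.6 and 21.2 CPM. When the cells above the median immediate early gene share of their library were left out, the Ndrg1 log2 ratio was -0.45.

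Ankrd37 (ENSMUSG00000050914, chr8:45996902-46005707, minus strand), an ankyrin repeat protein used as a marker of HIF-1α activity, had a ratio that its interval does not separate from that of Bnip3, and measured 3.43 CPM (3.12 to 3.75) in primary and 2.87 CPM (2.69 to 3.06) in cultured cells. Its log2 ratio was -0.26 (-0.42 to -0.09). The direction turned, to 0.14, among the cells at or below the median immediate early gene share. At equal depth 1.82% of primary and 1.47% of cultured cells had a UMI, with overlapping intervals (1.58 to 2.09 and 1.14 to 1.87).

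**Figure D3:**
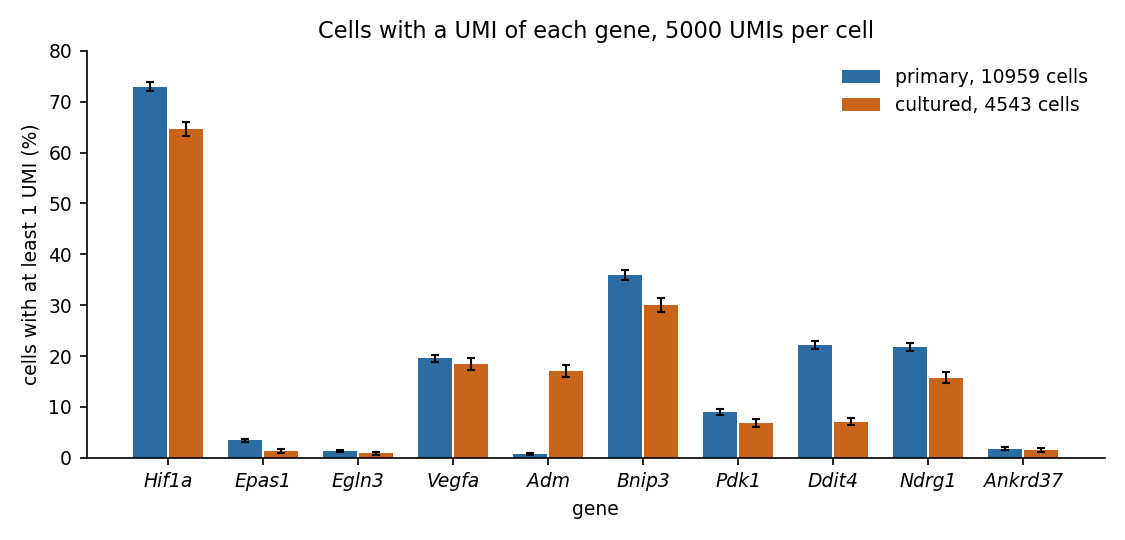
Percent of cells in which each gene had a UMI after every cell was thinned to 5000 UMIs, in 10959 primary and 4543 cultured cells, with exact binomial 95% intervals. The share is lower in the cultured library for 9 of the genes and higher for Adm (0.693% and 17.0%).

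At equal depth, then, the share of cells with a UMI followed the summed level for all 10 genes, with overlapping intervals for Vegfa, Egln3 and Ankrd37. Without thinning it was higher in the cultured library for all 10, with median depths of 10026.5 and 56864.5 UMIs per cell, so unthinned shares carry no order here. No cell type in these libraries is known to lack these genes, and UMIs from free RNA were not separated from those of the cells, so no background share stands beside any of these shares. The spread among thinned cells was widest for Ndrg1 in the primary library, where the variance was 2.43 times the mean, against 1.10 times in the cultured library. Counting alone gives a ratio of 1. Ddit4 went from 1.69 to 1.06, Hif1a from 1.73 to 1.39 and Vegfa from 1.57 to 1.16, while Adm was at 1.38 and 1.55 and Bnip3 at 1.13 and 1.27.

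The wider set of hypoxia-inducible genes showed no common direction. Of 39 further genes that HIF is known to induce, 35 had at least 10 CPM in either library, of which 11 were at least 2-fold lower and 9 at least 2-fold higher in culture, against 12.5% and 27.2% of all genes. Their median log2 ratio was 0.02, and its sign turned under 6 of the 10 alternatives. All 39 had at least 1 CPM, and over these the median was -0.35, with 20 lower and 19 higher. Genes of glucose uptake and glycolysis on the list stood on both sides, and those given here were picked after their values were seen. The glucose transporter Slc2a1 was at 321 and 44.0 CPM, Hk2, which phosphorylates glucose, at 137 and 43.8 CPM, and Pfkfb3, which drives phosphofructokinase, at 45.4 and 13.3 CPM. On the higher side were Tpi1 at 165 and 335 CPM, Eno1 at 164 and 564 CPM and Ldha, at under 2-fold, at 441 and 709 CPM.

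The same list held the transcription factor Bhlhe40, at 449 and 46.1 CPM, the mitochondrial Ndufa4l2, at 226 and 45.7 CPM, and the transferrin receptor Tfrc, at 47.7 and 11.1 CPM, on the lower side. On the higher side were Lox, which cross-links collagen, at 17.3 and 1180 CPM, Hmox1, which degrades haem, at 129 and 516 CPM, and Angptl4, at 1.04 and 14.1 CPM. Several of these, such as Lox and Hmox1, are known to answer to other signals too. Of 7 cartilage breakdown genes linked to HIF-2α, 5 had at least 1 CPM in either library. All 5 were at least 2-fold higher in culture, against 28.9% of all genes at that level. Mmp13, at 0.153 and 22.4 CPM, Adamts4 and Col10a1 passed that minimum through the cultured library alone. At a minimum of 10 CPM, only Mmp13 and Ptgs2, at 15.5 and 314 CPM, remained. The other 2 were at least 2-fold lower from few UMIs, Mmp9 with 68 and 56 and Nos2 with 11 and 3. The 6 heat shock genes were lower in culture in 5 cases, with Hspa1a at 276 and 3.41 CPM, against 35.5% of all genes with at least 10 CPM. The plot of ratios by gene list sets these groups side by side.

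**Figure D4:**
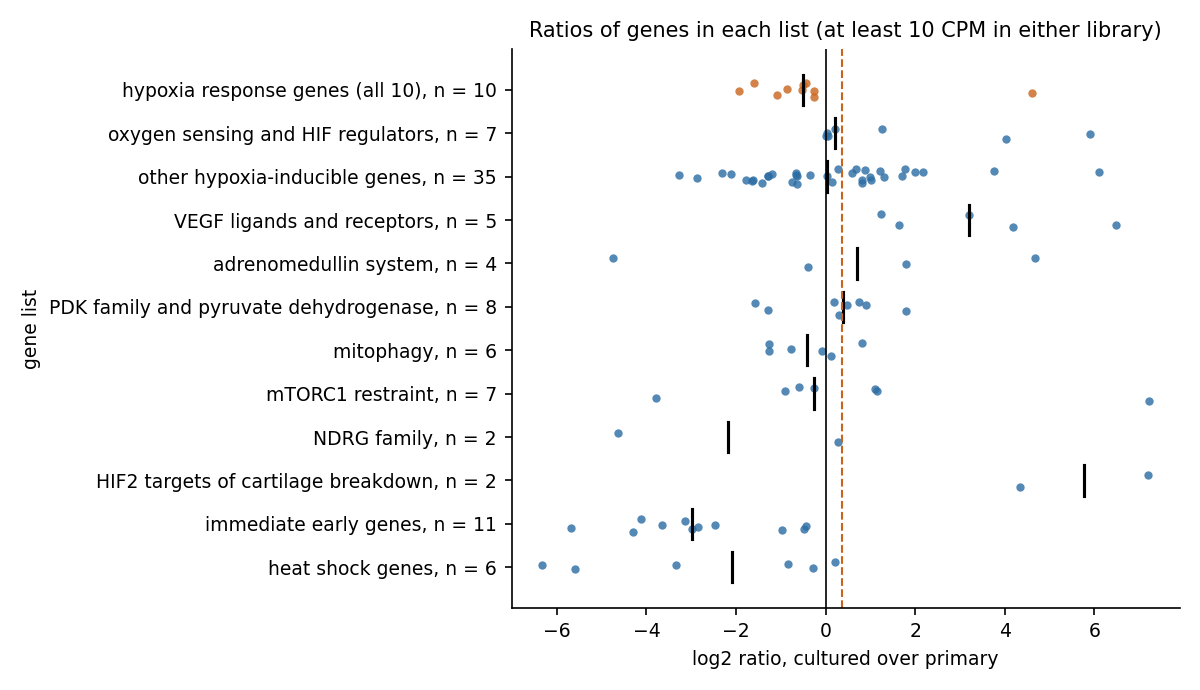
Log2 ratio of cultured over primary CPM (horizontal axis) for the 10 hypoxia response genes (orange) and for the genes of each other list with at least 10 CPM in either library (blue). Short bars are list medians and the dashed line is the median of all such genes (0.37). The 35 other hypoxia-inducible genes spread to both sides of 0, and all 11 immediate early genes lie below it.

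The 10 genes also differed between cells of the same library, where the preparation was the same. Cells were split by markers of other cell types or cartilage zones, by division, and into quartiles of depth, mitochondrial share, immediate early gene share and heat shock gene share, none of which used a member. Primary cells with markers of the superficial zone (Prg4, Clu and Cilp2), 1068 in number, had more Ndrg1, at 135 CPM against 58.0 CPM in the 10312 cells with neither these markers nor those of another type, a log2 ratio of 1.22 (1.14 to 1.29). Ddit4 was also higher there, at 89.2 against 56.3 CPM, a log2 ratio of 0.66 (0.57 to 0.76). Their Epas1 was lower, at 5.48 CPM from 66 UMIs against 7.60 CPM, a log2 ratio of -0.47 (-0.85 to -0.11). Their median depth was 8726 against 10228.5 UMIs. Above and at or below the median depth of the library, the log2 ratios were 1.28 and 1.00 for Ndrg1 and 0.60 and 0.68 for Ddit4. For Epas1 they were -0.34 (-0.79 to 0.08), with 0 inside the interval, and -0.70 (-1.48 to -0.005). The 54 primary cells with prehypertrophic or hypertrophic markers, set against the cells without them, showed no difference beyond the counting intervals for any member with over 3 UMIs. They were deep, with a median of 16862.5 UMIs, and above the library's median depth their log2 ratio was 0.44 (0.10 to 0.76) for Ndrg1 and -0.19 (-0.34 to -0.03) for Hif1a.

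Among the 21 endothelial-marker cells the response genes split. Ankrd37 stood at 80.3 CPM (48.4 to 125), from 19 UMIs in 12 cells, against 3.30 CPM in the cells with no markers of another type, and Ndrg1 at 233 CPM (175 to 303) against 64.9 CPM. Vegfa and Bnip3 were at 16.9 and 46.5 CPM there, against 56.2 and 95.2 CPM. Of the 470 primary Ankrd37 UMIs, 469 were in cells that met the chondrocyte marker class, which the endothelial class did not exclude. That class took in 99.8% of the primary cells. The 330 primary cells with fibroblast markers had less Hif1a, at 226 against 351 CPM, and less Bnip3, at 56.7 against 95.2 CPM, with more Ndrg1, at 88.3 against 64.9 CPM. Their depth was lower, at a median of 6364 against 10087.5 UMIs. Above the library's median depth the log2 ratios were -0.35 for Hif1a, -0.38 for Bnip3 and 0.67 for Ndrg1, and at or below it -1.14, -1.49 and 0.03 (-0.25 to 0.29). Cells with markers of another cell type made up 3.12% of the primary cells.

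In the primary library, Ddit4 and Ndrg1 went with the immediate early and heat shock genes. From the lowest to the highest quartile of immediate early gene share, Ddit4 went from 40.5 to 82.6 CPM and Ndrg1 from 44.7 to 89.2 CPM, log2 ratios of 1.03 (0.93 to 1.13) and 1.00 (0.90 to 1.09). From the lowest to the highest quartile of heat shock gene share, Ndrg1 went from 36.2 to 105 CPM, a log2 ratio of 1.53 (1.44 to 1.63), and Ddit4 from 44.7 to 76.9 CPM. Ankrd37 was higher in the highest early gene quartile too, with a log2 ratio of 0.52 (0.13 to 0.91) over all cells. Hif1a did not follow them, with a log2 ratio of 0.09 for the early genes and -0.45 for the heat shock genes. Pdk1 went the other way with the early genes, from 23.8 to 17.3 CPM, as did Egln3 in all cells, with a log2 ratio of -0.54 (-0.94 to -0.15).

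Depth moved with these splits. The median was 11477 UMIs in the lowest and 8179 UMIs in the highest early gene quartile, and Ndrg1 was itself lower in deep cells, with a log2 ratio of -1.03 between the deepest and the shallowest quartile. Within the cells above the median depth, the early gene quartiles differed by 1.00 for Ddit4 and 0.89 for Ndrg1, and within the cells at or below it by 1.00 and 0.58. For the heat shock quartiles the Ndrg1 log2 ratio was 1.39 and 1.26 in these depth classes. It was 0.27 (-0.10 to 0.66) within the superficial-marker cells, where the lowest quartile held 54 cells, and 1.44 within the cells without those markers. For Ddit4 the heat shock quartiles differed by 0.70 and 0.69 in the depth classes, by 0.11 (-0.32 to 0.58) within the superficial-marker cells and by 0.72 without those markers. The early gene ratio of Egln3 was -0.60 (-1.15 to -0.08) above the median depth and 0.01 (-0.76 to 0.82) at or below it. That of Ankrd37 was 0.30 (-0.27 to 0.84) and 0.55 (-0.13 to 1.27) in these depth classes, with 0 inside each interval.

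In the cultured library, Epas1 and Adm went with the immediate early genes. From the lowest to the highest quartile Epas1 went from 1.60 to 4.39 CPM, a log2 ratio of 1.46 (1.14 to 1.79), and Adm from 26.6 to 56.7 CPM, a log2 ratio of 1.09 (1.01 to 1.17). Both held above the median depth, at 1.51 and 1.05, and at or below it, at 1.25 and 1.27. Ankrd37 and Pdk1 went the other way, from 3.61 to 2.24 CPM and from 15.3 to 10.96 CPM. Above the median depth their log2 ratios were -0.73 (-1.08 to -0.39) and -0.56 (-0.72 to -0.40). At or below it they were -0.58 (-1.16 to 0.002) and -0.26 (-0.53 to 0.006), with 0 inside each interval. In the primary library the log2 ratio of the highest over the lowest early gene quartile was 1.05 (0.45 to 1.66) for Adm. For Epas1 it was -0.05 (-0.30 to 0.20), and the difference between libraries was not tested. Primary Adm was at 1.24 (0.48 to 2.01) above the median depth. At or below it the ratio was 0.78 (-0.33 to 2.04), from 30 and 9 UMIs, with 0 inside the interval. With the heat shock genes, cultured Epas1 went down from 4.02 to 1.47 CPM, a log2 ratio of -1.45 (-1.81 to -1.10). By quartile of mitochondrial share, cultured Hif1a was higher in the highest than in the lowest quartile by 0.57 (0.53 to 0.60) on the log2 scale and Vegfa by 0.56 (0.47 to 0.64), while the ratio was -0.37 for Bnip3. The lowest of these quartiles had a median of 3860 UMIs and the highest 54891 UMIs. In the primary library the same ratios ran from -0.28 for Bnip3 to 0.34 for Ndrg1.

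Dividing cells, those with at least 3 UMIs of an S phase or a G2 and M phase list at equal depth, numbered 618 primary and 942 cultured cells. In culture, dividing cells had less Vegfa than the others, at 30.0 against 44.0 CPM, less Bnip3, at 61.8 against 83.1 CPM, and less Hif1a, at 199 against 255 CPM. In primary dividing cells the log2 ratios were 0.01 (-0.12 to 0.14) for Vegfa, -0.03 (-0.13 to 0.07) for Bnip3 and 0.00 (-0.05 to 0.05) for Hif1a. Epas1 was higher in primary dividing cells, at 11.4 against 7.76 CPM, and lower in cultured ones, at 1.83 against 2.87 CPM.

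**Figure D5:**
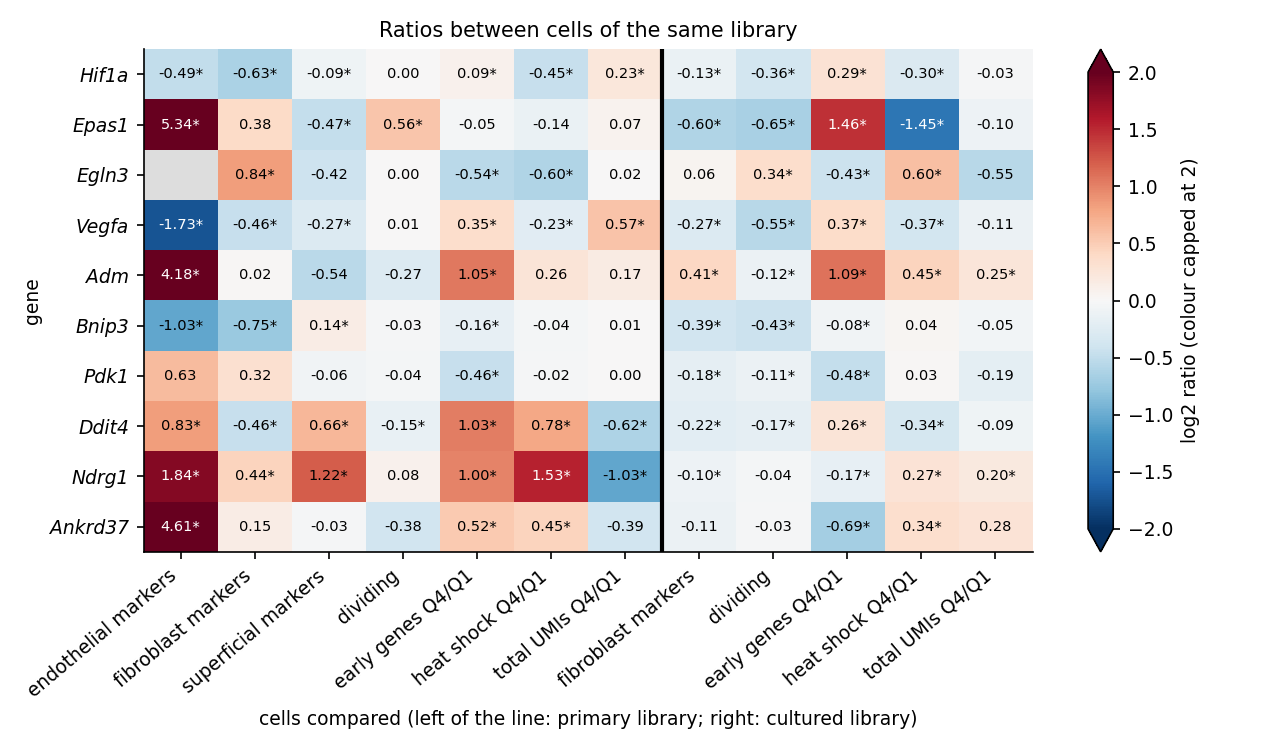
Log2 ratios between cells of the same library, with genes in rows and splits in columns (primary library left of the black line, cultured right). Q4/Q1 is the highest over the lowest quartile, marker classes are set against cells with no markers of another type (for the superficial class, also none of its own), a star means that the 95% counting interval leaves out 0, and grey means 3 or fewer UMIs. Ndrg1 and Ddit4 are high with early and heat shock genes in the primary library, and Epas1 with early genes in the cultured one. Adm is high with early genes in both (1.05 and 1.09), in the primary library from only 61 and 40 UMIs.

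Across single cells the correlations of thinned counts between pairs of the 10 genes ranged from -0.064 to 0.088, the last for Ddit4 and Ndrg1 in the primary library over 10959 cells. Cells of a library share its preparation and its counting noise, and values this low in sparse counts are given as a description. The genes closest to each member were read off for those with a UMI in at least 20% of cells. Ndrg1 in the primary library was closest to Clu (r = 0.29), Scara3 (0.25) and Mgp (0.24), of which Clu is one of the superficial markers. Bnip3 in the cultured library was closest to Fam162a (0.17), Aldoa (0.15) and Ndufa4l2 (0.15), and Fam162a and Ndufa4l2 were also among its nearest 3 in the primary library, at 0.06 and 0.07. All 3 are known as hypoxia-inducible. The nearest genes of Hif1a reached 0.20 in the cultured library (Prkg1, Rora and Plxdc2), and those of primary Ddit4 (Clu, Ier2 and Bhlhe40) reached 0.12.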

How the data were processed

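The tables that the authors deposited hold whole UMI counts without normalization, by gene and cell barcode. Per the study's methods and the submitters' processing notes, the authors made them with Cell Ranger 7.0.0 on mm10/GRCm38; the annotation release was not given in the sources used here. Groups followed the treatment labels. Barcodes with at least 500 genes, 1000 UMIs and at most 10% mitochondrial UMIs were kept, a filter set here. No doublet caller was run, and leaving out the 5% of cells with the most UMIs was an alternative. Counts were summed per library and scaled to a total of 1000000 (CPM). Intervals were exact Poisson, exact binomial (Clopper-Pearson) or, for ratios, exact conditional; counts under 3 were raised to 3 in a ratio. The depth was 137148874 and 330129909 UMIs, where 3 UMIs are 0.0219 and 0.00909 CPM. For shares of cells, each cell was thinned without replacement to 5000 UMIs; 787 primary and 795 cultured cells were shallower and not used there.

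A cell took a marker class with at least 3 of its markers and at least 0.1% of UMIs on them. For the prehypertrophic or hypertrophic class, 2 markers sufficed and no share of UMIs was required. These rules were set after values were seen. Aldoa has 2 rows and was left out of its list. The members and lists were chosen with earlier results of these data known. All members were named, then list genes with at least 10 CPM, those 2-fold apart first, and the 3 nearest genes by Pearson's r of log counts among genes with a mean of at least 0.1 UMI. Genes below 10 CPM that are named (Hif3a, Cited4, Pgf, Flt1, Kdr, Calcrl, Mmp9, Nos2, Adamts4 and Col10a1) and those of the single-cell splits were singled out after their values were seen. Positions are those of GENCODE M21 (GRCm38). Calculations used Python 3.11.15, scipy 1.17.1 and, for TMM factors, edgeR 4.0.16, and were tested on simulated data. The 10 alternatives changed cells, scaling or cell weights. Some genes of the lists count in their totals and are not reported here by name.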

Additional observations from a re-analysis of the deposited data

How the results depend on the processing

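With 1 library per group, depth limits little, and spread between animals or preparations was not measured. The counts of 3 members at least 2-fold lower and 1 at least 2-fold higher stayed within 1.5 times under the 10 alternatives run. With TMM scaling Ndrg1, at -1.05, was at least 2-fold lower as well. With each cell weighing the same, Ndrg1 (-1.04) took the place of Egln3 (-0.78) among the 3. The direction of all members held under them, except that of Ankrd37, which was 0.14 among cells at or below the median immediate early gene share; the cause was not tested. The median of the members, -0.51, was -0.71 with TMM scaling, -0.68 with a total without mitochondrial, ribosomal and the most abundant genes, -0.46 without dividing cells and -0.46 with each cell weighing the same. TMM scaling moved the median of all genes from 0.37 to 0.16, and the members' median minus it was -0.88 by library totals and -0.86 with TMM. The median of the other hypoxia-inducible genes, 0.02, turned to -0.18 with TMM scaling, -0.15 with the reduced total, -0.015 without the 5% of cells with the most UMIs, -0.026 without dividing cells, -0.050 among cells at or below the median early gene share and -0.16 with equal cell weights. Unthinned shares of cells, cultured minus primary, turned for 9 members through depth per cell: by 1.51 percentage points for Hif1a, 3.22 for Epas1, 4.81 for Egln3, 32.3 for Vegfa, 19.3 for Bnip3, 25.8 for Pdk1, 8.62 for Ddit4, 30.7 for Ndrg1 and 9.71 for Ankrd37. Splits within depth classes and within superficial-marker cells, and the comparison of marker classes with cells lacking them, were added after seeing the data. No paired analysis was possible because each group is 1 library with no replicate number.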

Other observations

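The 5460 cultured barcodes that the filter left out had a median of 775 UMIs and 6298068 UMIs in all. Adm stood there at 37.5 CPM (32.8 to 42.6), Hif1a at 273 CPM (260 to 286), Vegfa at 50.3 CPM (44.9 to 56.2), Bnip3 at 63.0 CPM (57.0 to 69.6) and Ddit4 at 15.6 CPM (12.6 to 19.0). For Adm, Hif1a, Vegfa and Ddit4 this lies between the levels of the kept primary and the kept cultured cells, and Bnip3 was below both. The Adm and Ddit4 intervals overlapped those of the kept cultured cells.

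Adm, Vegfa and Ndrg1 in the cultured library had UMIs in fewer than 20% of thinned cells, and their nearest genes were looked up after the data had been seen. Adm was closest to Ccn5 (r = 0.14), Adamts5 (0.11), an aggrecan-cleaving protease, and Ptx3 (0.11). Vegfa was closest to Glis1 (0.12), Pde10a (0.10) and Plxdc2 (0.10), and Plxdc2 was also among the nearest 3 of Hif1a in that library (0.19). Ndrg1 was closest to Hmcn1 (0.10), while Clu, its nearest gene in the primary library, was not among its nearest 3.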
